A study of Sus scrofa with 16 samples.

Results

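The receptors examined here sit on the surface of pituitary cells and receive signals that regulate hormone release: the angiotensin II receptor AGTR1, the somatostatin receptors SSTR2, SSTR3 and SSTR5, the ghrelin receptor GHSR, and ADCYAP1R1, the receptor for pituitary adenylate cyclase-activating polypeptide (PACAP). Of these 6 genes, chosen by symbol from the 25880 Ensembl genes of the count table, 2 (AGTR1 and ADCYAP1R1) carried their symbol in the deposited comparison of the authors. SSTR2, SSTR3 and SSTR5 were not listed there and were found only through a separate table that pairs Ensembl identifiers with symbols. GHSR is given no value. The identifier that the table pairs with GHSR, ENSSSCG00000020906, is deposited as TNFSF10, at chromosome 13, 111021958 to 111103065, which matched the RefSeq position of TNFSF10 (111021952 to 111103060) and lay beyond that of GHSR (110981465 to 111006149). The results therefore concern 5 receptors in whole pituitaries from 16 gilts of the Złotnicka White breed, 8 with a low (LFC) and 8 with a high (HFC) feed conversion ratio, the feed needed per unit of weight gain. All gilts were labelled day 180, were kept at the same test station with the same feed and housing, and were slaughtered at 100 ± 2 kg. According to the paper, however, the HFC gilts of this breed reached that weight later, and their carcasses held more fat and less meat. Feed conversion group therefore cannot be told apart from growth rate, time to slaughter and fatness here. No treatment was given, and the pigs were sorted by a trait measured in them. The whole gland, with both lobes, was sampled in bulk, so that fewer cells of a type cannot be told apart from less RNA per cell.

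Receptors of this class cross the membrane 7 times and act through G proteins. Somatostatin receptors couple to inhibitory G proteins, lower cyclic AMP and open potassium channels, and are known for restraining growth hormone and thyrotropin release. ADCYAP1R1 couples to stimulatory G proteins that raise cyclic AMP, and AGTR1 acts mainly through phospholipase C and calcium. PACAP is a hypothalamic peptide that also acts on glia, and angiotensin II is cut from a precursor by angiotensin-converting enzyme.

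The libraries held 6010629 to 11794256 gene counts each. Expression is given as CPM, the count scaled to the library size after TMM normalization, and a positive log2 fold change means a higher level in the HFC pigs. Exonic lengths were not at hand, so levels were compared between pigs and not between receptors. Across the 13621 genes tested, 0 (0%) were called at a fold change of 1.3 or more with an adjusted p up to 0.05 (quasi-likelihood test of edgeR, Benjamini-Hochberg), against 29 of 13446 (0.216%) with DESeq2. At the nominal level, an unadjusted p up to 0.05, edgeR gave 1559 genes, 958 with more in HFC (7.03%) and 601 with more in LFC pigs (4.41%). The share higher in the HFC pigs, 61.4% of these, was 46.2% with total library scaling and 51.7% in limma voom. HFC replicate 5, the shallowest library, stood apart, since without it the genes at this level became 3514. The defining pituitary hormone genes were present in every pig, with GH1 at no less than 23029 CPM and PRL at no less than 15477 CPM. GFAP, a glial marker of the posterior lobe, ranged from 1.98 to 1485 CPM, and LFC replicates 1 and 5 and HFC replicate 6 had the highest values.

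AGTR1 had a lower mean level in the HFC pigs, by the largest estimate among the 5 receptors, at the nominal level only. AGTR1 (ENSSSCG00000011695, chromosome 13, 88934985 to 88980310, Sscrofa11.1) ran from 18.3 CPM through a median of 22.3 to 46.1 CPM in the LFC pigs, and from 8.69 through a median of 16.6 to 23.7 CPM in the HFC pigs. The groups overlapped, but 4 HFC pigs were below every LFC pig, 4 LFC pigs were above every HFC pig, and 7 of the 8 HFC pigs were below the LFC median. The means were 26.4 ± 9.95 CPM (SD, n = 8) in LFC and 16.6 ± 5.02 CPM (SD, n = 8) in HFC pigs, a log2 fold change of -0.67 (SE 0.22), or a level 1.59-fold higher in the LFC pigs. On log2(CPM + 1), p was 0.0132 by an exact permutation test (two-sided, 12870 splits). In the test across all genes the unadjusted p was 0.00671 and the adjusted p 0.413 (edgeR), and DESeq2 gave 0.203 after adjustment, so the difference did not pass the correction in either tool. AGTR1 was the only one of the 5 receptors at the nominal level. The shares over all genes at that level were 4.41% higher in LFC and 7.03% higher in HFC pigs. The paper lists AGTR1 among the genes that differed in its own DESeq2 comparison of these pigs, made at the same thresholds. That comparison called more genes than DESeq2 did here. The AGTR1 value is therefore not independent evidence. The highest LFC values came from LFC replicates 3 and 6, with 46.1 and 36.6 CPM.

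**Figure D1:**
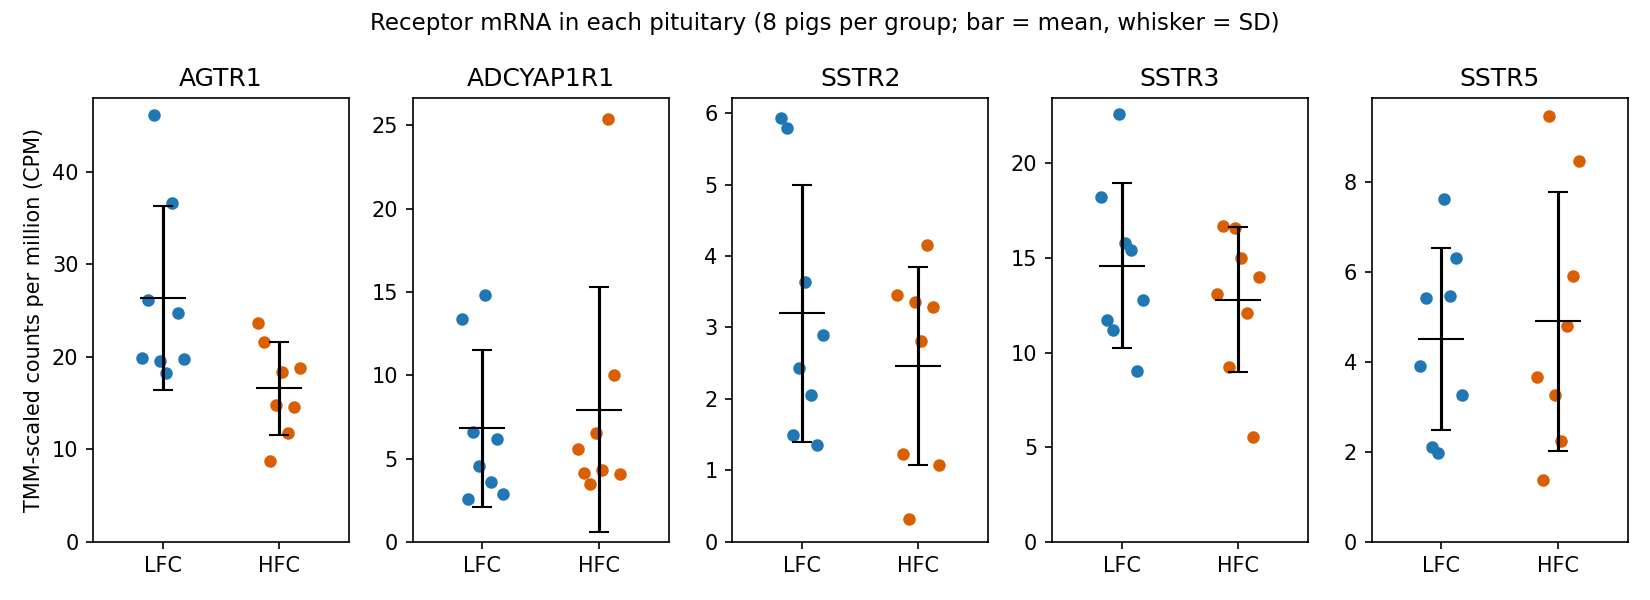
Level of each of the 5 receptors in the pituitary of each pig, in TMM-scaled CPM on a linear axis from 0, for the 8 LFC (blue) and 8 HFC (orange) pigs. Points are pigs, the bar is the group mean and the whisker the SD. AGTR1 is the receptor whose groups lie farthest apart (26.4 against 16.6 CPM), and a single HFC pig carries the highest ADCYAP1R1 value (25.4 CPM).

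The level of AGTR1 across pigs followed that of POMC, the precursor of corticotropin and melanotropin. POMC ran from 15491 to 83007 CPM in the LFC pigs and from 8574 to 25645 CPM in the HFC pigs. LFC replicate 3 had the highest value of both genes and HFC replicate 3 the lowest of both. Pearson's r on log2(CPM + 1) over the 16 pigs was 0.81 and Spearman's rho 0.56, with r = 0.90 within the LFC pigs and 0.36 within the HFC pigs. With the 2 pigs farthest from the AGTR1 median left out, r was 0.60. PCSK2, the convertase that cuts the POMC product in melanotrophs, had r = 0.76 with AGTR1, and PAX7, a transcription factor of melanotrophs, had r = 0.72. TBX19, a transcription factor of the POMC lineage, had r = 0.69 over all pigs, 0.88 within the LFC pigs and -0.03 within the HFC pigs. These pairs were looked at after their values were known, so they are given as descriptions without a p, and every point shares its library and depth between the genes plotted. All 7 corticotroph and melanotroph markers were detected, and their summed level was 15951 to 84191 CPM in the LFC pigs and 8894 to 26289 CPM in the HFC pigs. Of the 7, 3 were at the nominal level, POMC, PCSK2 and TBX19, each with a higher estimate in LFC pigs, against 4.41% of all genes in that direction. Their log2 fold changes were -1.23, -1.29 and -0.53. The others were not at that level, with -0.84 for PAX7, -0.16 for CRHR1, -0.15 for PCSK1 and 0.20 for AVPR1B. In DESeq2 POMC had an adjusted p of 0.035 and was called. The part that these cells have in the AGTR1 difference was not tested.

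**Figure D2:**
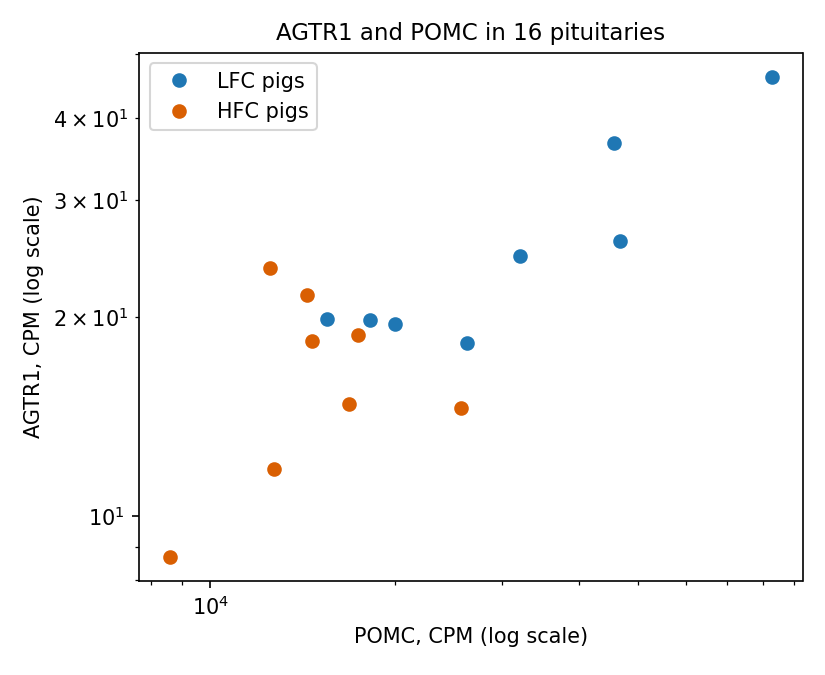
AGTR1 against POMC in the 16 pituitaries, both in CPM on log axes, with LFC pigs in blue and HFC pigs in orange. Each point is a pig, and the pig at the upper right is LFC replicate 3 (83007 CPM of POMC and 46.1 CPM of AGTR1). Pearson's r was 0.81 over all pigs and 0.36 within the HFC pigs.

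The closest likeness to AGTR1 was that of CD55, an inhibitor of complement on the cell surface, with r = 0.89 over the 16 pigs and 0.83 after each gene was centred on its group mean. It was followed by JCHAIN, the joining chain of immunoglobulins (r = 0.87), and C1QL3, a secreted C1q-like protein (r = 0.84, and 0.63 without the 2 pigs farthest from the AGTR1 median). An r of at least 0.80 with AGTR1 was reached by 9 of the 13620 other genes tested.

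The enzyme that forms angiotensin II differed in the opposite direction to its receptor, at the nominal level. ACE, which encodes angiotensin-converting enzyme, had 10.8 to 31.9 CPM in the LFC pigs and 25.9 to 50.7 CPM in the HFC pigs, and all 8 HFC pigs were above the LFC median. Its means were 22.0 ± 6.23 CPM (SD, n = 8) in LFC and 36.9 ± 9.10 CPM (SD, n = 8) in HFC pigs, a log2 fold change of 0.75 (SE 0.18). The adjusted p was 0.372 in edgeR and 0.0452 in DESeq2, which called it. ACE is made by endothelium as well, and VWF and CDH5, endothelial markers, had log2 fold changes of 0.78 and 0.43 with unadjusted p-values of 0.0126 and 0.0436 (edgeR), while PECAM1, another marker, had 0.06 and an unadjusted p of 0.725 (edgeR). All 8 endothelial and mural markers found had positive estimates, beside 6527 of all 13621 genes tested. Without the 3 pigs of highest GFAP, 6 of the 8 were positive and 2 negative. The part of vessels in the ACE difference was not tested. AGT, the angiotensinogen precursor, had a log2 fold change of -0.43 (SE 0.65), and its 3 highest values, 58.8, 51.5 and 33.6 CPM, were in the same 3 pigs as those of GFAP. ATP6AP2, an accessory protein of the vacuolar proton pump, and ENPEP, which trims angiotensin II, had log2 fold changes of -0.22 and -0.26. AGTRAP, a protein that binds the AGTR1 tail and promotes its internalization, had a log2 fold change of -0.28. None of AGT, ATP6AP2, ENPEP and AGTRAP was at the nominal level (unadjusted p from 0.0677 to 0.514, edgeR), and the estimate of AGT ran from -1.14 to 0.09 when single pigs were left out. Of the 9 ligand precursors and enzymes tested, 4 had higher and 5 lower estimates in the HFC pigs, with ANPEP at 0.36, LNPEP at 0.17, MME at -0.21 and CTSB at -0.05, all of them peptidases. AGTR2 did not pass the filter on low counts.

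The somatostatin receptors showed no difference beyond the spread of the pigs. SSTR3 (ENSSSCG00000027106, RefSeq position on Sscrofa11.1 chromosome 5, 10581814 to 10593796) ran from 9.02 through a median of 14.1 to 22.6 CPM in the LFC pigs and from 5.55 through a median of 13.6 to 16.7 CPM in the HFC pigs. The HFC range lay almost wholly inside the LFC range, with HFC replicate 7 below it. The log2 fold change was -0.19 with a 95% interval from -0.64 to 0.26 (adjusted p = 0.678, edgeR). The exact permutation p was 0.418 (two-sided).

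SSTR2 (ENSSSCG00000017249, RefSeq position on chromosome 12, 7783401 to 7789483) was the receptor with the fewest reads, from 3 to 49 per pig, and 14 of the 16 pigs had at least 10. In RefSeq its span overlaps SLC39A11, and as the libraries did not keep the strand, reads of the shared bases cannot be assigned with certainty. It ran from 1.36 through 2.67 (median) to 5.93 CPM in the LFC pigs and from 0.326 through 3.04 (median) to 4.15 CPM in the HFC pigs. The mean was lower and the median higher in the HFC group, in which 3 pigs were below every LFC pig. The log2 fold change was -0.38 with a 95% interval from -1.24 to 0.48 (adjusted p = 0.668, edgeR).

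SSTR5 (ENSSSCG00000033234, RefSeq position on chromosome 3, 40756465 to 40758111) had 9 to 94 reads per pig. It ran from 1.98 through a median of 4.67 to 7.62 CPM in the LFC pigs and from 1.38 through a median of 4.23 to 9.46 CPM in the HFC pigs, so both extremes were HFC pigs. The log2 fold change was 0.14 with a 95% interval from -0.61 to 0.88 (adjusted p = 0.870, edgeR). The exact two-sided permutation p-values of SSTR2 and SSTR5 were 0.374 and 0.917. These intervals leave room for differences in both directions.

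On average SSTR3 took most of the reads of the 3 somatostatin receptors, 65.3% ± 10.9 (SD, n = 8) in LFC and 62.6% ± 15.4 (SD, n = 8) in HFC pigs, a share that also depends on transcript length. SSTR5 took 20.8% ± 9.59 (SD, n = 8) and 24.9% ± 15.3 (SD, n = 8), and SSTR2 took 13.9% ± 6.33 (SD, n = 8) and 12.5% ± 7.46 (SD, n = 8). The mix varied most among the HFC pigs, where the SSTR5 share was 7.14% in the lowest and 49.7% in the highest pig. In HFC replicates 3 and 7 SSTR5 had more reads than SSTR3, 87 against 85 and 65 against 61. HFC replicate 3 joined the lowest SSTR2 (3 reads, 0.326 CPM) to the highest SSTR5 (87 reads, 9.46 CPM). The 3 receptors did not rise and fall together, with r = -0.47 between SSTR3 and SSTR5, 0.19 between SSTR2 and SSTR3 and -0.14 between SSTR2 and SSTR5 over the 16 pigs.

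SSTR2 tended to be low where the lactotroph genes DRD2 and PRL were high. Its r was -0.80 with DRD2, the dopamine receptor that restrains prolactin release, and -0.65 with PRL, against -0.37 with GH1. With TSHB, the thyrotropin beta subunit, its r was 0.58, with 0.89 within the HFC and 0.09 within the LFC pigs. Without the 2 pigs farthest from the SSTR2 median, the r with DRD2 was -0.66, that with PRL -0.48 and that with TSHB 0.25. The genes most like SSTR2 were SERPINE2, a protease inhibitor (r = 0.87), WNT5A, a Wnt ligand (r = 0.84), and APOA1, an apolipoprotein (r = 0.82). With those same 2 pigs left out the values were 0.75, 0.73 and 0.64. The summed endothelial and mural markers had r = 0.59 with SSTR2, 0.28 without the 2 farthest pigs, 0.89 within the HFC pigs and 0.18 within the LFC pigs. SSTR5 had r = 0.41 with GH1, -0.19 with PRL and -0.48 with TSHB. Its closest genes were TRIM47 (r = 0.86), PEX6 (r = 0.84) and GPC1 (r = 0.83). The closest to SSTR3 were TMEM86A (r = 0.83), LRRC39 and TNFSF13B (r = 0.79 for both), of which LRRC39 fell to 0.40 without the 2 farthest pigs. The ranking of genes by their likeness to such low counts rests on few reads, and the r values carry no p, because the closest genes were picked as the highest of 13620. The pairs with DRD2, PRL, GH1 and TSHB were instead chosen by hand, and they carry no p either. How many genes had an r as negative as that of DRD2 was not counted.

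ADCYAP1R1 was the most variable of the 5 receptors, and no difference between the groups was detected. ADCYAP1R1 (ENSSSCG00000016672, chromosome 18, 41917426 to 41972311) ran from 2.60 through a median of 5.37 to 14.8 CPM in the LFC pigs and from 3.48 through a median of 4.94 to 25.4 CPM in the HFC pigs. The 3 highest pigs were HFC replicate 6, LFC replicate 5 and LFC replicate 1, with 25.4, 14.8 and 13.4 CPM, and of the other pigs only HFC replicate 7 was above 6.60 CPM. Its biological coefficient of variation was 0.606, higher than that of 98.0% of the genes tested, whose median was 0.204. The means were 6.82 ± 4.71 CPM (SD, n = 8) in LFC and 7.94 ± 7.37 CPM (SD, n = 8) in HFC pigs. The log2 fold change was 0.22 (SE 0.45, adjusted p = 0.830, edgeR), and the exact two-sided permutation p was 0.767. Leaving out HFC replicate 6 turned the log2 fold change to -0.32.

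The 3 pigs with the most ADCYAP1R1 were those with the most GFAP, 1441 CPM in HFC replicate 6, 1485 CPM in LFC replicate 5 and 631.5 CPM in LFC replicate 1, against at most 83.8 CPM in the others. Over the 16 pigs ADCYAP1R1 had r = 0.87 and rho = 0.82 with GFAP, r = 0.96 within the LFC pigs and 0.89 within the HFC pigs, and r = 0.74 without the 2 pigs farthest from its median. MBP, a protein of myelin, had r = 0.76. The 5 glial markers found of 7 summed to 118.0 to 4433 CPM in the LFC pigs and 106.9 to 2604 CPM in the HFC pigs. The closest genes were GABBR1, a subunit of the GABA-B receptor (r = 0.94), PCDH9, a protocadherin (r = 0.92), and SLC1A2, the astrocyte glutamate transporter (r = 0.92), and 146 of the 13620 other genes (1.07%) reached an r of at least 0.80, against 1 to 9 for each of the other 4 receptors. ADCYAP1, which encodes PACAP itself, had r = 0.83 with its receptor, but it did not pass the filter on low counts and its median was 0 CPM in both groups. With the 3 pigs of highest GFAP left out together, the log2 fold change of ADCYAP1R1 was 0.31 (unadjusted p = 0.295, edgeR). The part of posterior lobe tissue in the level of ADCYAP1R1 was not tested.

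**Figure D3:**
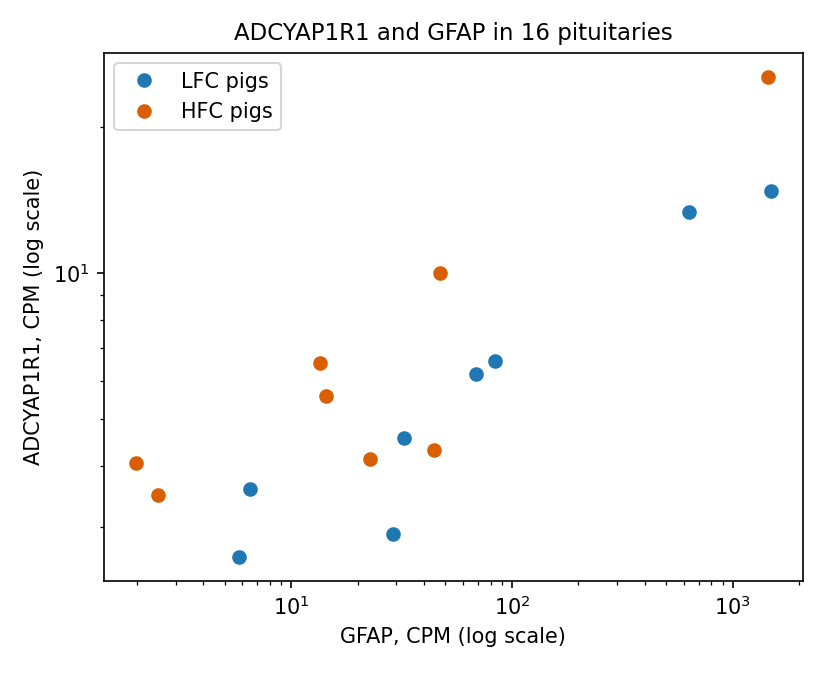
ADCYAP1R1 against GFAP in the 16 pituitaries, both in CPM on log axes, with LFC pigs in blue and HFC pigs in orange. Each point is a pig, and the 3 points at the upper right are LFC replicates 1 and 5 and HFC replicate 6, with 631.5 CPM of GFAP or more. Both groups have pigs at the high end.

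Of 24 other receptors through which signals reach the pituitary, 22 were found and 10 passed the filter. Among these 10, 3 were at the nominal level, all with higher estimates in the HFC pigs, against 7.03% of all genes in that direction, and their median log2 fold change was 0.26 against -0.01 for all genes tested. The count was 2 with total library scaling, beside 642 higher of all 13621 genes. It was 1 without the 3 pigs of highest GFAP, beside 832 higher of 13633 genes. GLP1R, the receptor of the incretin GLP-1, had 1.22 ± 0.77 CPM (SD, n = 8) in LFC and 3.50 ± 1.80 CPM (SD, n = 8) in HFC pigs, a log2 fold change of 1.53 (SE 0.42). This estimate rests on few reads, 1 to 15 per pig in the LFC and 12 to 43 in the HFC group. DRD2 had 141.7 ± 32.3 CPM (SD, n = 8) in LFC and 183.8 ± 51.9 CPM (SD, n = 8) in HFC pigs, a log2 fold change of 0.38, in the direction of PRL, whose log2 fold change was 1.27 (adjusted p = 0.372 in edgeR and 0.00876 in DESeq2). MC3R, a melanocortin receptor with 6 to 55 reads per pig, had a log2 fold change of 0.59. All 8 HFC pigs were above its LFC median. The adjusted p-values of GLP1R, DRD2 and MC3R were 0.385, 0.431 and 0.432 (edgeR), so none passed the correction. The receptors for other releasing hormones were not at the nominal level, with log2 fold changes of 0.38 for TRHR, -0.12 for GHRHR, -0.16 for CRHR1 and 0.20 for AVPR1B, and unadjusted p-values from 0.137 to 0.597 (edgeR). Among the other marker lists, 2 of 6 somatotroph and lactotroph genes, PRL and DRD2, were nominal and higher in the HFC pigs, against 7.03% of all genes. DRD2 was also counted among the receptors above. Of 6 gonadotroph and thyrotroph genes, 1 (CGA) was nominal and higher in the LFC pigs, against 4.41% of all genes. At that level were 0 of 3 glial and 0 of 8 blood and macrophage genes (edgeR). The shares over all genes were 7.03% higher and 4.41% lower in the HFC pigs. SSTR1 did not pass the filter, at 1.09 CPM in LFC and 0.767 CPM in HFC pigs on average.

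**Figure D4:**
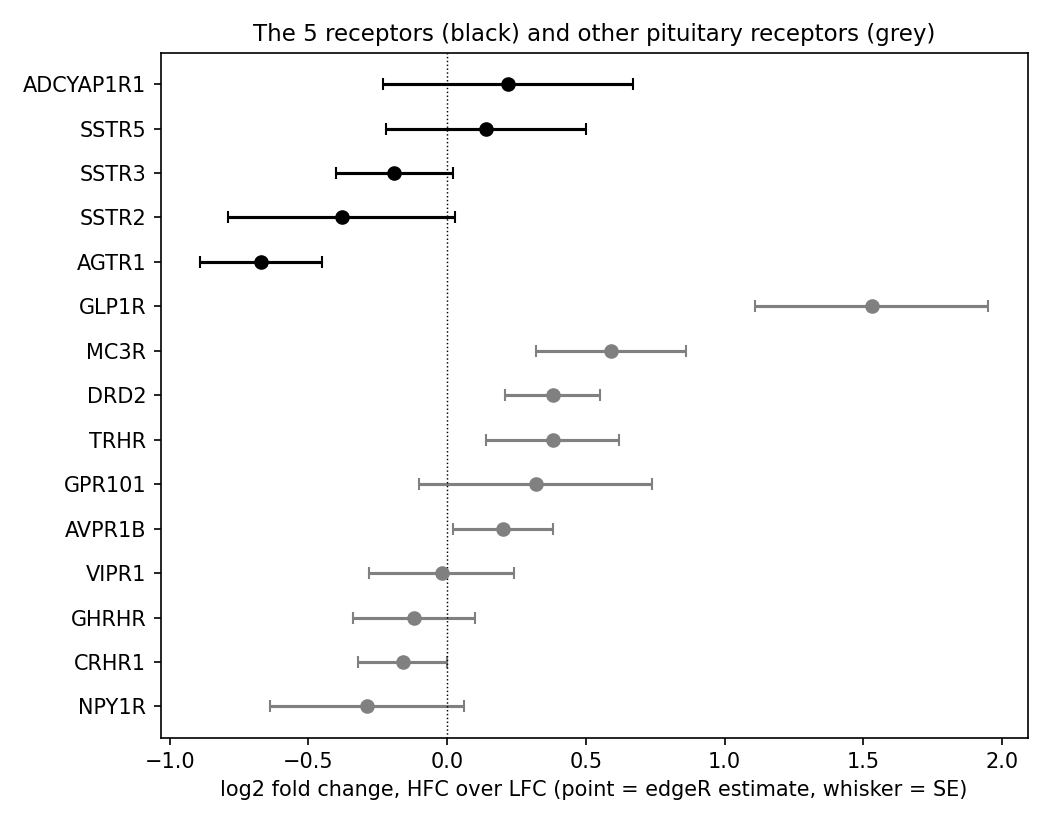
Log2 fold change of the 5 receptors (black) and the 10 other pituitary receptors that passed the filter on low counts (grey). Points are edgeR estimates of HFC over LFC and whiskers are standard errors. AGTR1 (-0.67) is the lowest and GLP1R (1.53) the highest of the 15 values. GLP1R had only 1 to 43 reads per pig.

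Downstream of the receptors, 0 genes of the signalling lists were called in edgeR, which called 0 of all 13621 genes tested. In the list of G protein subunits, 1 of 25 genes tested was at the nominal level with a higher estimate in the HFC pigs and 2 with a higher one in the LFC pigs. The shares over all genes were 7.03% and 4.41%. The estimates of all 25 were 10 higher and 15 lower in the HFC pigs, which total library scaling turned to 13 and 12. GNAO1, the alpha subunit Go that somatostatin and dopamine receptors use, had 203.8 ± 39.9 CPM (SD, n = 8) in LFC and 274.4 ± 45.0 CPM (SD, n = 8) in HFC pigs, a log2 fold change of 0.43. GNB5 and GNG2, a beta and a gamma subunit, had log2 fold changes of -0.19 and -0.30, and GNB5 was below the LFC median in each HFC pig. The inhibitory subunit GNAI2 and the stimulatory GNAS had 0.12 and -0.01.

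In the cyclic AMP branch, 3 of 25 genes were at the nominal level, all with higher estimates in the HFC pigs, where the share over all genes was 7.03%. These were PDE7B, a phosphodiesterase that degrades cyclic AMP (log2 fold change of 0.44), RAPGEF2, a guanine nucleotide exchange factor for Rap (0.40), and ADCY6, an adenylyl cyclase that makes cyclic AMP (0.24). PRKACA, the catalytic subunit of protein kinase A, had 0.24 with an unadjusted p of 0.0559 (edgeR). In the phospholipase C branch, through which AGTR1 acts, 2 of 21 rows were at that level, likewise higher in the HFC pigs and to be read against the same 7.03%, PRKCB, a protein kinase C (0.43), and ITPR2, a calcium channel of the endoplasmic reticulum (0.52). ITPR3 and CAMK2B had 0.60 and 0.28. Of these 21 rows, 3 carry the symbol CALM3, so the calmodulin genes could not be told apart. The median log2 fold changes of the G protein, cyclic AMP and phospholipase C lists were -0.02, 0.03 and 0.12. Without HFC replicate 5 the nominal counts were 5 higher and 1 lower in the HFC pigs for both the cyclic AMP and the phospholipase C branch. In that fit the nominal counts over all 13697 genes tested rose as well, to 1894 higher and 1620 lower. With total library scaling 1 was higher in each branch, beside 642 higher and 749 lower of all 13621 genes. Without the 3 pigs of highest GFAP 2 were higher and 1 lower in the cyclic AMP branch and 1 higher in the other. The counts over all 13633 genes tested in that fit were 832 higher and 554 lower.

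The potassium channels that somatostatin receptors open had log2 fold changes of -0.16 for KCNJ3, -0.11 for KCNJ5 and 0.06 for KCNJ6. At the nominal level in edgeR were 0 of the 3 tested. The shares over all genes at that level were 7.03% higher and 4.41% lower in the HFC pigs. Among receptor kinases, arrestins, regulators of G protein signalling and binding partners, 0 of 25 genes were at that level, beside the same shares. Of the 25, 17 had a lower estimate in the HFC pigs, with a median log2 fold change of -0.14. Over all 13621 genes tested, 6527 had a higher estimate in the HFC pigs, and the median was -0.01. Without HFC replicate 5, 2 of the 25 were at the nominal level, both lower in the HFC pigs, beside 1620 lower of all 13697 genes tested. The smallest p-values were those of the receptor kinases GRK4 (-0.27) and GRK3 (-0.15) and of RGS10 (-0.50), at 0.0675 to 0.0865 unadjusted (edgeR). LEAP2, an antagonist of the ghrelin receptor, had a log2 fold change of 0.34 with an unadjusted p of 0.0366 (edgeR). SST, the somatostatin precursor, and GHRL, that of ghrelin, did not pass the filter.

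When single pigs were left out, AGTR1 kept a negative log2 fold change, from -0.77 to -0.49, with unadjusted p-values of 0.00318 to 0.0263 in the 16 fits (edgeR). The value nearest to 0 came without LFC replicate 3. SSTR3 stayed between -0.27 and -0.06 and SSTR2 between -0.53 and -0.19. SSTR5 ran from -0.06 to 0.29 and ADCYAP1R1 from -0.32 to 0.49, so the sign of both depended on the pigs included.

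**Figure D5:**
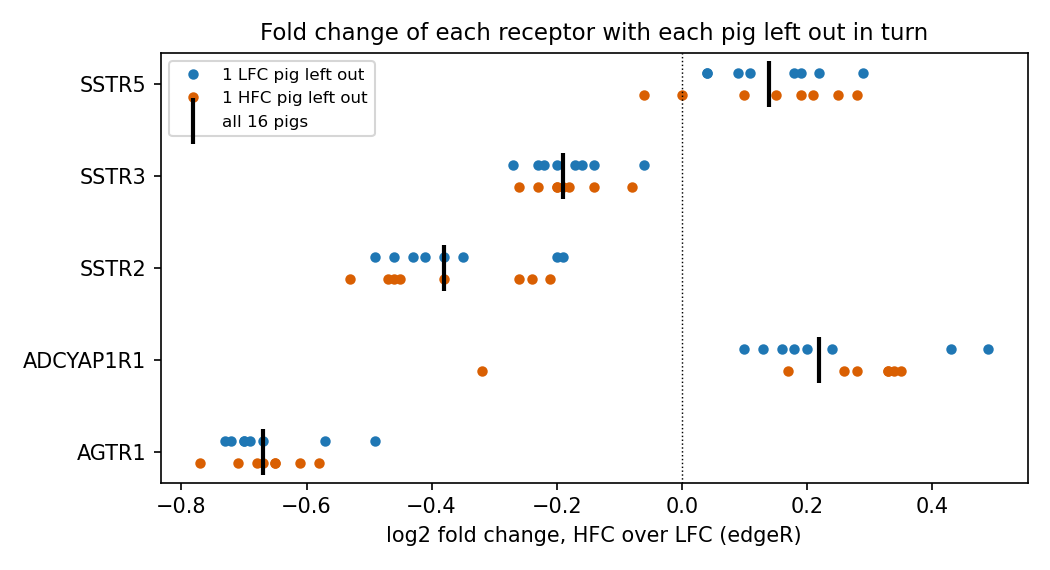
Log2 fold change of HFC over LFC for each receptor, with all 16 pigs (black bar) and without single pigs (blue for an LFC pig, orange for an HFC pig), from edgeR. AGTR1 stays below 0 throughout (-0.77 to -0.49), whereas the values of ADCYAP1R1 and SSTR5 fall on both sides of 0.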

How the data were processed

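RNA of whole pituitaries was sequenced in single reads from non-stranded libraries. The authors filtered the reads with FastQC and Flexbar, aligned them to Sscrofa11.1 with STAR through RSEM and the Ensembl annotation, and deposited unnormalized counts per gene and pig (the counts used here). From the authors' comparison, which also holds group means, fold changes and p-values, only identifiers, symbols and gene positions (other values) were used. The rows had 9550 deposited symbols, 5860 names from an Ensembl identifier table and 306 by position, where a RefSeq gene of the same assembly shared at least 50% of both spans. Where an identifier had both a deposited symbol and one in the table, 96.2% of 8982 were the same.

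Counts were fitted with edgeR 4.0.16 in R 4.3.3 (TMM scaling, its expression filter, quasi-likelihood F tests, group as the only term). Standard errors came from the F statistic, and 95% intervals from its degrees of freedom. Genes were called at a fold change of 1.3 or more and an adjusted p up to 0.05 (Benjamini-Hochberg). Exact permutation tests and correlations used log2(CPM + 1). Alternatives were DESeq2 1.42.0, limma 3.58.1 voom with quality weights, scaling by RLE or by total library size, omission of the filter, a minimum of 10 counts in each pig, a replicate block, a pseudocount of 0.1, and omission of single pigs. The edgeR test was also run on simulated counts made with the dispersions of the main fit. There it called 82 of 100 genes changed 2-fold, 42 of 100 changed 1.5-fold and 4 of 13421 unchanged genes. Libraries within a group differed by more than sampling noise (chi-square per degree of freedom from 11.4 to 85.9).

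The receptors and gene lists were chosen with earlier results of these data known. Named were all receptors, up to 4 genes per signalling list with the smallest p, the 3 genes most like each receptor, and the most abundant markers. Named after their values were seen were GNAI2, GNAS, AGTR2, SST, GHRL, SSTR1, the other releasing hormone receptors, ANPEP, LNPEP, MME, CTSB, CDH5, PECAM1, and the AGT, AGTRAP, ADCYAP1, PCSK2, PAX7 and TBX19 pairs. Pairs of somatostatin receptors with DRD2, PRL, GH1 and TSHB were also chosen by hand. The pigs were unrelated. Protein and promoter sequences were not used here, and 3 genes of the lists are not reported here and were left out of their counts and sums.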

Additional observations from a re-analysis of the deposited data

Results flagged for a closer look

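In 9 of 100 groups of 8 pigs examined (50 genes, by Dixon's test at the 95% level), a pig lay far from the others of its group, and chance alone flags about 1 in 20. No receptor was among them. HFC replicate 5 was the lowest HFC pig in GNAO1 (180.3 CPM) and RAPGEF2 (21.6 CPM) and the highest in GNG5 (58.3 CPM), AGTRAP (60.4 CPM) and ATP6AP2 (299.8 CPM). HFC replicate 6 was far above the other HFC pigs in MBP (1109 CPM), GFAP (1441 CPM) and MAG (33.3 CPM), and HFC replicate 3 in KCNJ5 (281.4 CPM).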

How the results depend on the processing

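For all 5 receptors, no alternative brought an adjusted p to 0.05, and DESeq2 called 29 genes where edgeR called 0. The log2 fold change of AGTR1 was between -0.74 and -0.62 under the 8 alternatives other than leaving out single pigs (adjusted p from 0.174 to 0.498), and its mean difference in log2(CPM + 1) was between -0.70 and -0.50 without each pig (exact p from 0.00684 to 0.0294), against -0.62. Limma voom with quality weights turned ADCYAP1R1 to -0.04 and gave 2540 genes at the nominal level (unadjusted p up to 0.05) in place of 1559, 51.7% of them higher in the HFC pigs against 61.4%. That share was 46.2% with total library scaling. Leaving out single pigs gave 989 to 3514 such genes (989 without HFC replicate 4, 1031 without LFC replicate 4, 3514 without HFC replicate 5) and 0 calls each time. It moved the log2 fold change of ADCYAP1R1 from -0.32 (without HFC replicate 6) to 0.49, and that of SSTR5 from -0.06 (without HFC replicate 3) to 0.29. Mean differences in log2(CPM + 1) ran from -0.14 to 0.30 for ADCYAP1R1, -0.11 to 0.20 for SSTR5, -0.40 to -0.12 for SSTR2 and -0.27 to -0.05 for SSTR3. The replicate block gave AGTR1 -0.64 (unadjusted p = 0.0357, edgeR), 1404 nominal genes and 0 calls. Same-numbered pigs had correlations of their deviations between -0.343 and 0.374, so the numbers did not pair the pigs, and no LFC pig correlated best with its own number. SSTR2 and SSTR5 could not be fitted with at least 10 counts in every pig. The alternative without the 3 pigs of highest GFAP was chosen after seeing the data and gave 1386 such genes. Low counts (3 to 94 per pig) limit what can be said of SSTR2 and SSTR5. The same holds for GLP1R (1 to 43 per pig) and MC3R (6 to 55 per pig).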
